A study of Mus musculus with 6 samples.

Results

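The genes described here are 48 genes of mitosis, measured by poly(A) RNA-Seq in Lin-Sca+Kit+ (LSK) cells, the bone marrow population in which the hematopoietic stem cells and the earliest progenitors lie. They were chosen by symbol from the summary table of 53445 loci, with the locus of the largest exon length taken where a symbol was listed more than once, and all 48 were found and passed the filter on low counts, as 22032 loci did in all. Each genotype, OgaVav-Cre and wildtype, was represented by 3 female mice on a C57BL/6 background at about 12 weeks of age, with at least 20000 sorted cells and 1 mouse per library. In OgaVav-Cre mice a floxed allele of Oga, the gene of the enzyme that removes O-GlcNAc from proteins, was deleted by the Vav-iCre transgene, which is active throughout the hematopoietic lineage and not in LSK cells alone. The wildtype mice were described as littermates, and the sources used here do not say whether they carried a floxed allele or the transgene. The question was whether a loss of O-GlcNAc removal went with another level of the mitosis genes.

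A cell enters mitosis when cyclin B binds the kinase CDK1 and the CDC25 phosphatases remove the inhibitory phosphates from it. Aurora and Polo-like kinases, kinesin motors and condensin then build the spindle and compact the chromosomes, and the spindle checkpoint holds CDC20 back until every kinetochore is attached. Once it is released, the anaphase-promoting complex marks securin and cyclin B for destruction, separase opens cohesin and the cell divides. The transcripts of most of these genes are kept low in resting cells by the DREAM complex and peak in G2 and M phase, so that their level in a bulk sample is widely used as a measure of proliferation. In such a sample fewer dividing cells and less RNA per dividing cell cannot be told apart.

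The libraries held 25190298, 26078093 and 27064389 reads assigned to loci in OgaVav-Cre and 20600489, 19318056 and 21684561 in wildtype replicates 1, 2 and 3. Levels are given as CPM, the reads of a locus relative to its library's TMM-scaled total, on which 3 reads correspond to 0.109 to 0.155 CPM, while the members had between 135 and 18943 reads in a library. Oga, listed under its older symbol Mgea5, was covered by 104, 109 and 110 reads in the OgaVav-Cre libraries, against 3164, 2970 and 2736 in the wildtype ones, a log2 fold change of -5.01 (SE 0.167, edgeR adjusted p = 5.88e-05), with low reads in every library labelled OgaVav-Cre and in no other. Wildtype replicate 1 stood apart from the other libraries in the mitosis genes, and the genotype comparisons of the members are therefore given with and without it. The share of reads from 153 immunoglobulin loci also differed between libraries, from 2.10% to 17.2% in OgaVav-Cre and from 2.34% to 9.33% in wildtype. Of the gate's own markers, Kit was at 432, 541 and 251 CPM in OgaVav-Cre against 371, 601 and 497 CPM in wildtype. Ly6a, which encodes Sca-1, was present in every library, at 218, 114 and 100 CPM in OgaVav-Cre against 48.4, 122 and 42.3 CPM in wildtype.

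Because the members are known as a group under shared transcriptional control, their promoters were searched for the core of the CHR element, TTTGAA, to which the DREAM and B-MYB complexes bind, and for CCAAT, the box bound by NF-Y. Windows from 250 bases before to 50 bases after the transcription start (RefSeq, build GRCm38.p6) were given for 40 of the 48 members, in 43 windows, and both strands were searched for each motif on its own, so that adjacent matches may share a base. TTTGAA was found in 29 of 40 members (72.5%), against 20.2% of 27025 genes. CCAAT was found in 29 of 40 as well (72.5%), against 41.1% of all genes, and both motifs stood together in 25 members (62.5%, against 7.97%). Of 73 other mitosis genes with a window, 39.7% held TTTGAA, 56.2% held CCAAT and 27.4% both. Among genes of DNA replication and S phase, 12.1% of 33 held TTTGAA and 63.6% held CCAAT. The following 120 bases before the start, on the gene's strand, show promoters with both motifs (Cdk1, Cdc20 and Kif11), with CCAAT alone (Ccnb1) and with neither (Pttg1, the member with the least spread between the wildtype libraries). Capitals mark TTTGAA and CCAAT or their reverse complements TTCAAA and ATTGG.
Cdk1, chr10:69352913-69353032, minus strand: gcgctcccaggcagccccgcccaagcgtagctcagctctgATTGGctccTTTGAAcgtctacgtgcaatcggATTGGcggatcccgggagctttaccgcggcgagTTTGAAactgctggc
Cdc20, chr4:118437344-118437463, minus strand: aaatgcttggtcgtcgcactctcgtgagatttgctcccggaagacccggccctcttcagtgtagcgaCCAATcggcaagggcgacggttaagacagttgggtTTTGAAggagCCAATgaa
Kif11, chr19:37376262-37376381, plus strand: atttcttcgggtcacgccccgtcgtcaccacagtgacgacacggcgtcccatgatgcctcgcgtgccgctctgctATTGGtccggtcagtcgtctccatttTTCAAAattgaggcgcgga
Ccnb1, chr13:100786487-100786606, minus strand: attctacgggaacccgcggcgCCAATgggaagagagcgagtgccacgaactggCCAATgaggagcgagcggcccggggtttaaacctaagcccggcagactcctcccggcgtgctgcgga
Pttg1, chr11:43425982-43426101, minus strand: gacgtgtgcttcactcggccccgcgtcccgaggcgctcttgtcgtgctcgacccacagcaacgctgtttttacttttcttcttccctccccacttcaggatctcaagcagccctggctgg

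A match of letters is a description and not a binding site, and a window without a match says only that these letters are not in it.

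The level of the mitosis genes was alike in the 3 OgaVav-Cre mice and lay between that of wildtype replicate 1 and that of the other two wildtype mice. Summed over the 48 members it was 3997, 4061 and 4253 CPM in OgaVav-Cre, a mean of 4104 ± 133 (SD, n = 3), and 6137, 2582 and 2886 CPM in wildtype, a mean of 3868 ± 1971 (SD, n = 3). Wildtype replicate 1 was thus 2.24 times the mean of wildtype replicates 2 and 3 and 1.496 times the OgaVav-Cre mean, and the OgaVav-Cre mean was itself 1.501 times that of wildtype replicates 2 and 3. As a share of all reads the members took 0.358% to 0.431% in OgaVav-Cre and 0.637%, 0.258% and 0.315% in wildtype replicates 1, 2 and 3.

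**Figure D1:**
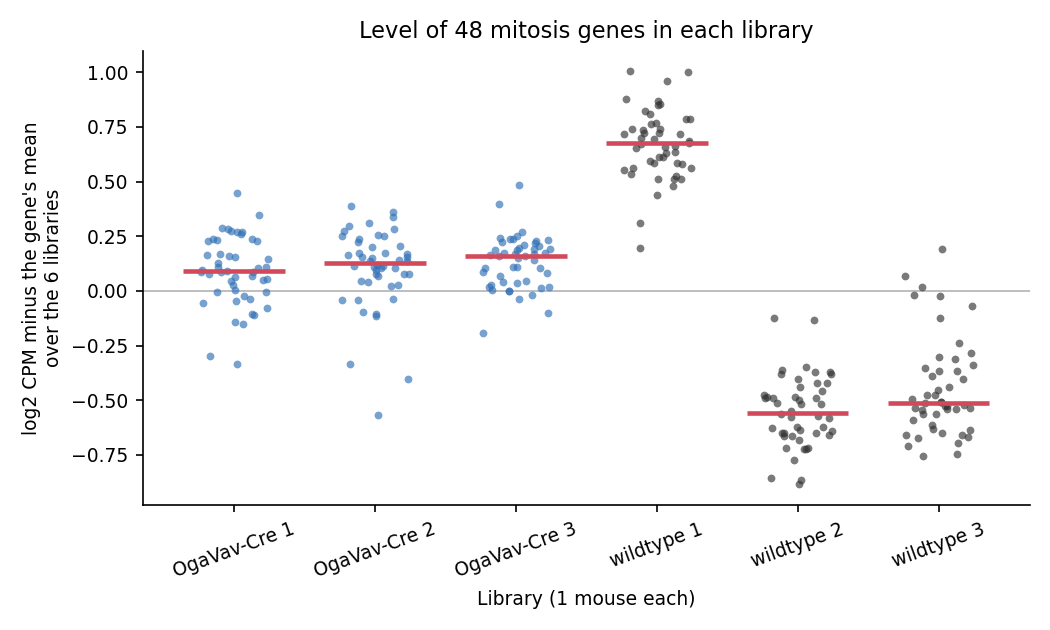
Level of each of the 48 mitosis genes (points) in each of the 6 libraries, as log2 CPM minus that gene's mean over the libraries, with the median of each library as a red bar. The medians were 0.090, 0.13 and 0.16 in OgaVav-Cre and 0.67, -0.56 and -0.51 in wildtype replicates 1, 2 and 3.

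The order of the libraries was shared by nearly all members; these counts were chosen after the values were seen. The highest of the 6 libraries was wildtype replicate 1 for 47 of 48 members, with Pttg1 the exception, against 14.6% of all loci tested. The lowest was wildtype replicate 2 or 3 for 46 of 48, all but Cdc25b and Cenpa, against 36.5% of all loci. For 29 members wildtype replicate 1 was more than 2-fold above both other wildtype libraries, against 1.59% of all loci, and it was the highest of the wildtype libraries for 48 of 48 (34.4% of all loci). All 3 OgaVav-Cre libraries lay between wildtype replicate 1 and the other two for 40 members, against 3.68% of all loci. The 8 that departed from this were Cdc25b, Cdc25c, Cenpa, Cenpe, Foxm1, Kif18a, Mki67 and Pttg1.

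None of the 48 members differed between the genotypes at the study's cutoffs (adjusted p under 0.05 together with a log2 fold change beyond 1 in either direction), which 0.0318% of the loci tested met (7 of 22032, edgeR quasi-likelihood test with Benjamini-Hochberg adjustment). Their adjusted p ran from 0.568 to 0.996, and none reached an unadjusted p below 0.05, where 4.38% of all loci did with a higher level in OgaVav-Cre and 6.27% with a lower one. The median log2 fold change was 0.13, with a range from -0.30 to 0.36, beside 0.0041 for all loci tested. It was above 0 for 36 of 48 members, against 50.5% of all loci, and for 26 of 48 when library totals alone set the scale, which moved the median of all loci to -0.11 and that of the members to 0.015. The genotypes did not separate for any member, whereas 17.5% of all loci had no overlap between them. The 95% interval held 0 for 48 of 48 members and lay within -1 to 1 for 34, so that a 2-fold difference of means remained within the interval of the other 14.

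With all 6 libraries, the members varied more among the wildtype than among the OgaVav-Cre libraries. The SD of log2 CPM among the wildtype libraries had a median of 0.709 over the members and ran from 0.398 (Pttg1) to 0.985 (Cenpf), and for 48 of 48 members it was larger than the log2 fold change in either direction, against 53.7% of all loci. Among the OgaVav-Cre libraries the median SD was 0.0956, from 0.0207 (Smc2) to 0.553 (Cdc25b). This SD was larger than the log2 fold change for 16 of 48, against 53.7% of all loci. Read counting alone would give a median of 0.0420, as computed from the reads of all 6 libraries and not of OgaVav-Cre alone. The SD was larger in wildtype than in OgaVav-Cre for 48 of 48 members, against 48.6% of all loci, for which the median SDs were 0.255 in OgaVav-Cre and 0.261 in wildtype. The wildtype spread rested on replicate 1: between wildtype replicates 2 and 3 alone the median SD was 0.131, and it was larger than that of OgaVav-Cre for 27 of 48 members (38.4% of all loci). The highest wildtype library was more than 2-fold above the lowest for 43 members, while the OgaVav-Cre libraries lay within 1.5-fold of each other for 46.

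**Figure D2:**
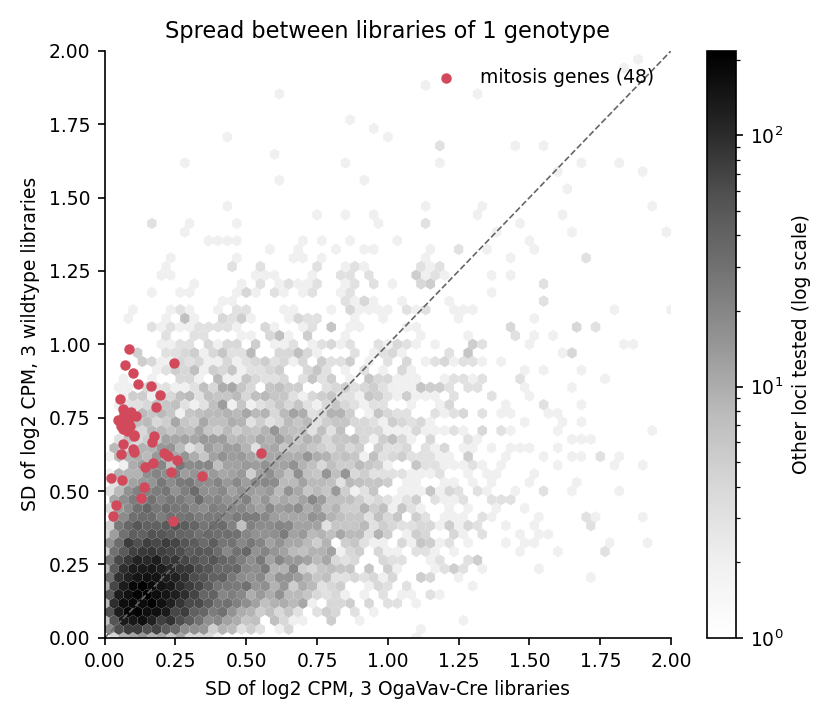
SD of log2 CPM among the 3 OgaVav-Cre libraries (horizontal) and the 3 wildtype libraries (vertical) for the 48 mitosis genes (red points) and all other loci tested (grey hexagons, darker for more loci); the dashed line marks equal SDs. Every red point lies above the line, and 271 loci lie beyond the axes, which end at 2.

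Among the proliferation markers, Mki67 (chr7:142881471-142908100, mm9), which encodes the Ki-67 antigen that coats mitotic chromosomes, was at 439, 451 and 551 CPM in OgaVav-Cre against 886, 302 and 445 CPM in wildtype replicates 1, 2 and 3. Of its OgaVav-Cre values 2 were close to that of wildtype replicate 3 and the other lay above it, and the log2 fold change was -0.18 (SE 0.358, edgeR adjusted p = 0.873). Top2a, the topoisomerase that untangles sister chromatids, was at 476, 498 and 519 CPM in OgaVav-Cre against 711, 280 and 305 CPM in wildtype, with each OgaVav-Cre value between wildtype replicate 1 and the other two. Its log2 fold change was 0.20 (SE 0.340, edgeR adjusted p = 0.849). Foxm1, the transcription factor of many G2 genes, was at 61.4, 46.1 and 59.3 CPM in OgaVav-Cre against 97.2, 41.4 and 57.5 CPM in wildtype, a log2 fold change of -0.23 (SE 0.293, edgeR adjusted p = 0.787).

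The 7 genes of the mitotic cyclins and CDK1 activation summed to 407, 403 and 429 CPM in OgaVav-Cre against 644, 250 and 276 CPM in wildtype. Ccnb1, the cyclin B of mitotic entry, was at 60.7, 67.0 and 64.4 CPM in OgaVav-Cre against 122, 40.7 and 39.2 CPM in wildtype, where replicate 1 was 3.06 times the mean of the other two. Its locus (chr13:101548686-101556525, mm9, minus strand) is overlapped by LOC100505162 on the same strand and by LOC100504316 and LOC100505168 on the other, and the sources used here do not say whether reads were counted by strand. Cdk1 was at 69.5, 70.8 and 57.0 CPM in OgaVav-Cre against 86.2, 38.2 and 37.3 CPM in wildtype, a log2 fold change of 0.29 (SE 0.319, edgeR adjusted p = 0.757). Ccna2, the cyclin A of S and G2 phase, was at 146, 144 and 154 CPM in OgaVav-Cre against 222, 82.5 and 84.2 CPM in wildtype, and is overlapped by Bbs7 on the same strand and Exosc9 on the other. The phosphatase genes kept less to this order. Cdc25c, the member with the lowest level per length, was at 10.4, 9.48 and 8.52 CPM in OgaVav-Cre against 14.3, 6.99 and 10.2 CPM in wildtype, and Cdc25b, at 34.5, 29.3 and 60.9 CPM in OgaVav-Cre against 72.7, 30.4 and 49.7 CPM in wildtype, had the widest OgaVav-Cre spread of all members.

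The 4 mitotic kinases and the 3 subunits of the chromosomal passenger complex, which corrects faulty attachments through Aurora B, had median log2 fold changes of 0.16 and 0.32, and none of them passed the test. Aurka, the kinase of the spindle poles, was at 34.0, 36.5 and 32.9 CPM in OgaVav-Cre against 44.8, 18.3 and 17.1 CPM in wildtype. Its log2 fold change of 0.36 (SE 0.354, edgeR adjusted p = 0.720) was the highest of the members. Aurkb was at 68.9, 59.8 and 65.3 CPM in OgaVav-Cre against 87.2, 36.7 and 40.0 CPM in wildtype. For both kinases wildtype replicate 1 was above, and wildtype replicates 2 and 3 below, every OgaVav-Cre library. Plk1, the Polo-like kinase of mitotic entry, was at 37.7, 28.9 and 34.9 CPM in OgaVav-Cre against 54.6, 18.7 and 22.2 CPM in wildtype. Its whole span lies inside the locus Plk1/Dctn5 of the same strand, with AK038907 on the other. Incenp, the scaffold of the complex, was at 99.0, 104 and 94.8 CPM in OgaVav-Cre against 122, 54.6 and 56.1 CPM in wildtype. Its log2 fold change was 0.35 (SE 0.301, edgeR adjusted p = 0.679). Incenp and the other 2 subunits had every OgaVav-Cre value between wildtype replicate 1 and wildtype replicates 2 and 3. Cdca8 (borealin) was at 46.6, 42.7 and 45.4 CPM in OgaVav-Cre against 57.8, 22.5 and 27.7 CPM in wildtype. It is overlapped by 9930104L06Rik on the other strand. Birc5 (survivin) was at 48.8, 44.8 and 50.8 CPM in OgaVav-Cre against 72.4, 27.3 and 30.4 CPM in wildtype. The 3 subunits together summed to 194, 191 and 191 CPM in OgaVav-Cre, an SD of 1.92, and to 253, 105 and 114 CPM in wildtype.

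Of the spindle checkpoint genes, Bub3 (chr7:138703905-138715412, mm9), which carries the checkpoint kinases to kinetochores, came first of the 48 members by p. It was at 88.8, 88.3 and 84.5 CPM in OgaVav-Cre against 93.7, 58.1 and 51.9 CPM in wildtype, a log2 fold change of 0.36 (SE 0.216, edgeR adjusted p = 0.568). Bub1, the checkpoint kinase, was at 39.6, 38.2 and 37.2 CPM in OgaVav-Cre against 65.1, 25.3 and 28.3 CPM in wildtype. Its OgaVav-Cre values spanned a narrow range inside that of wildtype. Mad2l1, the inhibitor of CDC20, was at 64.8, 89.8 and 77.1 CPM in OgaVav-Cre against 99.7, 54.0 and 48.1 CPM in wildtype. It shares most of its span with LOC100045924 on the same strand. Ttk (MPS1), the kinase at the top of the checkpoint, was at 20.7, 22.6 and 20.1 CPM in OgaVav-Cre against 31.2, 14.9 and 11.3 CPM in wildtype.

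Of the 5 members with the widest wildtype spread, Cenpf, Kif2c, Aspm and Cenpe are motor, kinetochore and spindle genes, and the other is Ccnb1. Cenpf (chr1:191464478-191511965, mm9), a kinetochore protein of G2 and M phase, was at 87.9, 87.9 and 79.3 CPM in OgaVav-Cre against 157, 43.3 and 55.7 CPM in wildtype, a ratio of wildtype replicate 1 to the mean of the other two of 3.18 and a log2 fold change between genotypes of -0.0069 (SE 0.435, edgeR adjusted p = 0.996). Kif2c (MCAK), which takes apart microtubules at centromeres, was at 27.1, 23.8 and 19.4 CPM in OgaVav-Cre against 36.0, 10.9 and 12.6 CPM in wildtype. Aspm, a protein of the spindle poles, was at 57.3, 65.6 and 60.03 CPM in OgaVav-Cre against 113, 35.3 and 42.9 CPM in wildtype. For these 3 genes, as for 40 of the 48 members in all, every OgaVav-Cre value lay between wildtype replicate 1 and wildtype replicates 2 and 3. Cenpe, the kinesin that brings chromosomes to the spindle equator, was at 57.2, 50.5 and 59.0 CPM in OgaVav-Cre against 98.5, 29.6 and 53.8 CPM in wildtype. Nuf2, of the NDC80 complex that holds the microtubule, was at 49.8, 57.1 and 54.6 CPM in OgaVav-Cre against 67.6, 35.0 and 28.9 CPM in wildtype. Nuf2 kept to the common order, whereas wildtype replicate 3 lay within the OgaVav-Cre range for Cenpe. Kif18a, which limits microtubule length, was at 19.6, 31.6 and 24.2 CPM in OgaVav-Cre against 35.6, 22.1 and 16.6 CPM in wildtype. Cenpa, the histone H3 variant of centromeres, had the lowest log2 fold change of the members, -0.30 (SE 0.294, edgeR adjusted p = 0.725), from 81.6, 59.5 and 79.6 CPM in OgaVav-Cre against 136, 60.4 and 75.0 CPM in wildtype. Wildtype replicates 2 and 3 lay within the OgaVav-Cre range there.

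At anaphase onset, Cdc20, the activator of the anaphase-promoting complex, was at 49.0, 44.5 and 38.9 CPM in OgaVav-Cre against 57.7, 25.01 and 26.9 CPM in wildtype, a log2 fold change of 0.27 (SE 0.314, edgeR adjusted p = 0.766). Espl1 (separase) was at 50.3, 45.2 and 50.5 CPM in OgaVav-Cre against 64.1, 25.4 and 29.1 CPM in wildtype. Pttg1 (securin), the member whose highest library was not wildtype replicate 1, was at 10.7, 10.5 and 14.2 CPM in OgaVav-Cre against 12.4, 7.25 and 10.9 CPM in wildtype, and was highest in OgaVav-Cre replicate 3. Of condensin, which compacts the chromosomes, Smc4 was at 303, 319 and 360 CPM in OgaVav-Cre against 409, 228 and 234 CPM in wildtype, and Ncapd2 at 175, 168 and 161 CPM in OgaVav-Cre against 224, 111 and 127 CPM in wildtype. Among the 10 roles, summed condensin had the smallest ratio of wildtype replicate 1 to the mean of the other two wildtype libraries (1.86), and the 7 genes of the spindle and cytokinesis the largest (2.52).

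**Figure D3:**
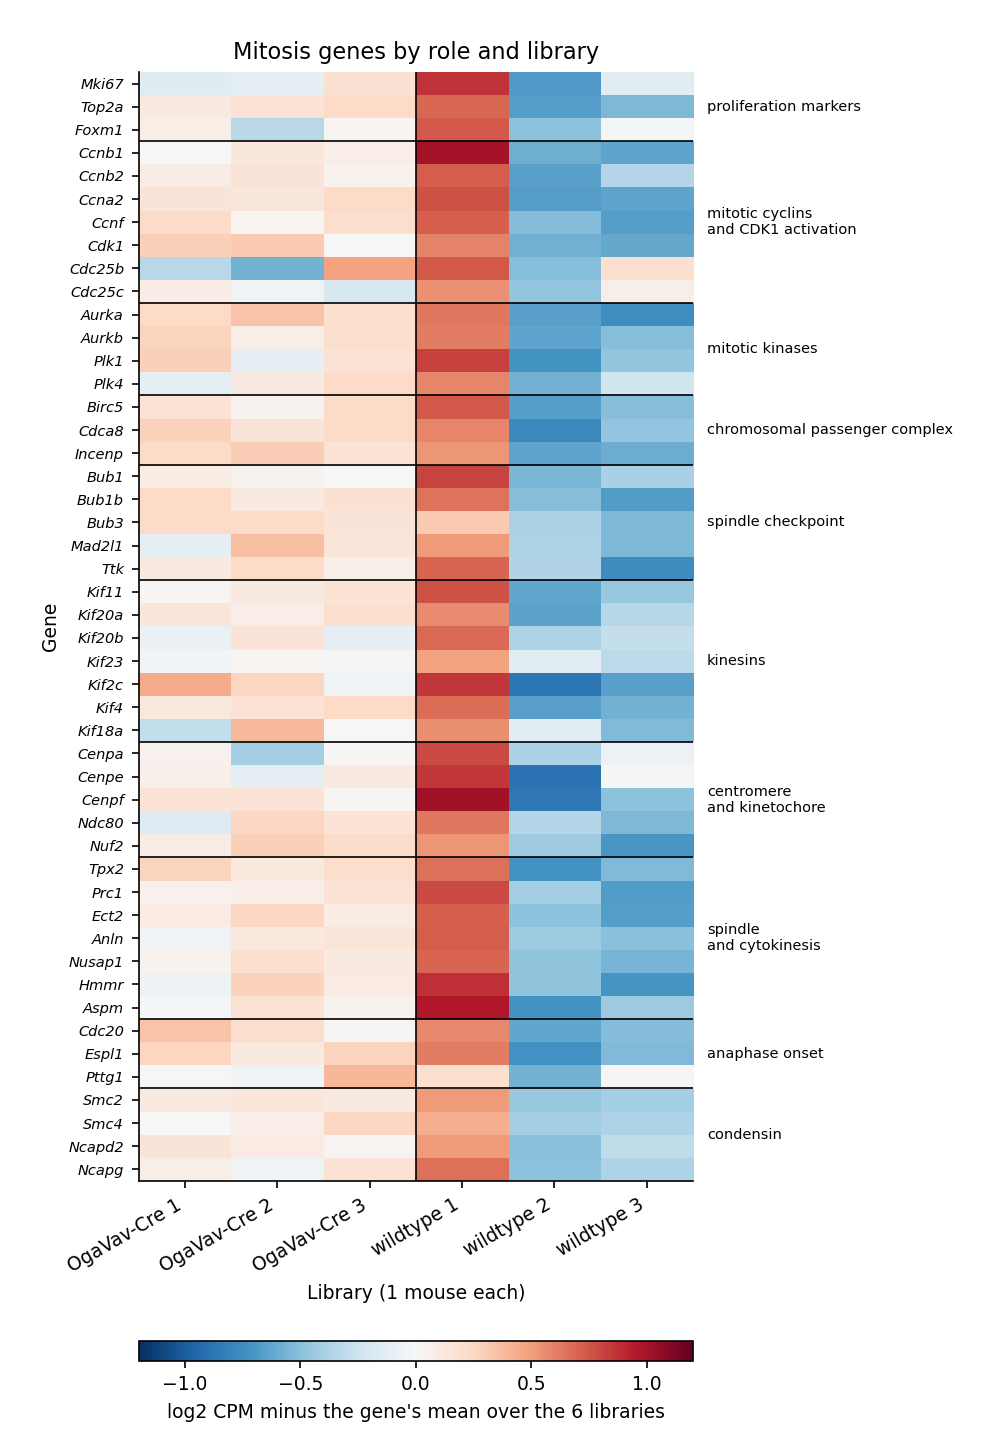
Level of each mitosis gene (rows, grouped by role) in each library (columns), as log2 CPM minus the gene's mean over the 6 libraries, red for above and blue for below. The column of wildtype replicate 1 is red for 48 of 48 genes, wildtype replicate 2 is blue for all of them and wildtype replicate 3 for most, and the OgaVav-Cre columns are pale.

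Compared per length of exon, with the RPKM values deposited by the authors, the members spanned a wide range of levels. The highest mean levels over the 6 libraries were those of Smc4 (45.2 RPKM), Mki67 (44.4), Top2a and Ccna2 (34.3 and 34.4) and Ncapd2 (30.9), and the lowest those of Cdc25c (1.61 RPKM), Kif18a (2.01) and Ttk (3.71). Smc4 was at 46.9 ± 6.40 RPKM in OgaVav-Cre and 43.5 ± 15.6 in wildtype, and Mki67 at 40.6 ± 6.95 and 48.2 ± 27.2 (SD, n = 3 each), so that these neighbours in the order did not differ beyond their spread. The median over members was 8.14 RPKM.

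Without wildtype replicate 1 the comparison read differently. The log2 fold change was then above 0 for 48 of 48 members, with a median of 0.64 and a range from 0.057 (Cdc25b) to 1.00 (Kif2c). With library totals alone as the scale it was above 0 for 45 of 48, with a median of 0.53 beside -0.12 for all loci. Still none of the members passed both cutoffs, as 0.0172% of the loci did in that fit, and their adjusted p ran from 0.186 to 0.960 (edgeR). At an unadjusted p below 0.05, 38 of the 48 were higher in OgaVav-Cre, against 7.4% of all loci, and none was lower, against 7.13%. The 10 that were not among the 38 were Cdc25b, Cdc25c, Cenpa, Cenpe, Foxm1, Kif18a, Kif20b, Kif23, Mki67 and Pttg1. Incenp, with a log2 fold change of 0.84 (SE 0.112, edgeR adjusted p = 0.186), came first by p there. These values come from 3 OgaVav-Cre and 2 wildtype mice. Wildtype replicate 1 was left out for its high level in these same genes, so a rise of the fold changes follows from that choice. The p-values of this fit therefore describe the members and do not test them. Nothing in the labels marks wildtype replicate 1 as other than wildtype. Leaving out wildtype replicate 2 or 3 in its place gave medians of -0.049 and -0.082, with 17 and 18 members above 0.

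**Figure D4:**
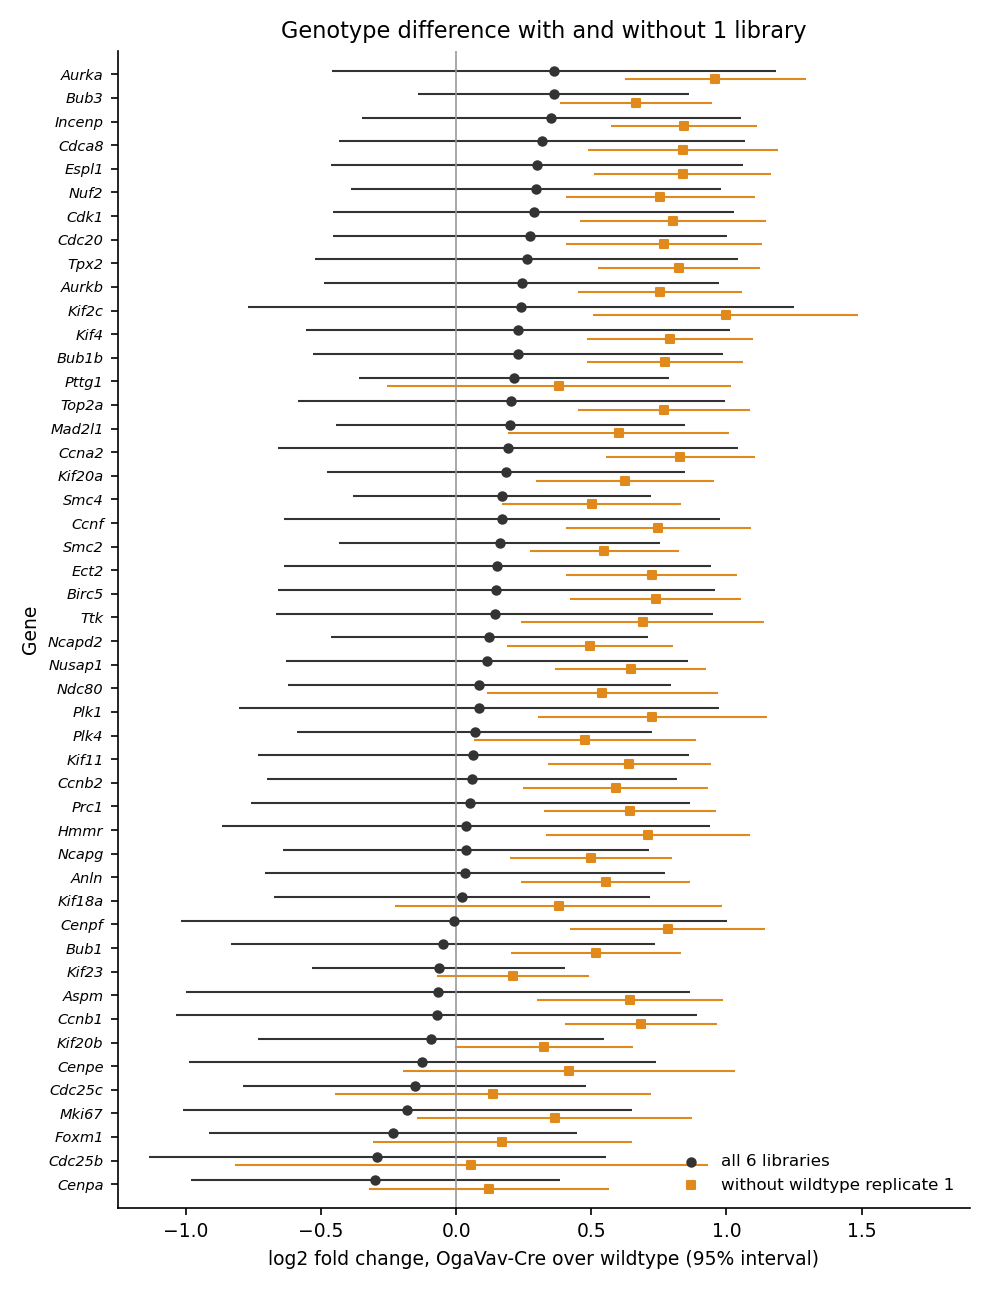
Log2 fold change of each mitosis gene, OgaVav-Cre over wildtype, with its 95% interval, from all 6 libraries (dark circles) and without wildtype replicate 1 (orange squares), ordered by the former. Every dark interval crosses 0. Every orange square lies to the right of its circle, which follows from leaving out the highest wildtype library of each gene.

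Other genes of the cell cycle followed the same order of libraries to a smaller degree. A list of 90 further mitosis genes (89 found), from the anaphase-promoting complex to cohesin, the kinetochore and the DREAM complex, summed to 5216, 5490 and 5369 CPM in OgaVav-Cre against 6550, 4348 and 4529 CPM in wildtype. None passed both cutoffs, 1 was lower and none higher at an unadjusted p below 0.05, and the median log2 fold change was 0.058. Without wildtype replicate 1, 37 were higher and 1 was lower at that level, against 7.4% and 7.13% of all loci, with a median of 0.35. Wildtype replicate 1 was the highest of the 6 libraries for 66 of these genes, so these counts are not a separate test. The 1 lower gene, Cdc26, is named after its values were seen. Sass6, which builds the core of the centriole, reached that level with all 6 libraries, though not without that library (log2 fold change -0.27). It was at 24.7, 26.5 and 28.6 CPM in OgaVav-Cre against 43.5, 29.98 and 34.0 CPM in wildtype (log2 fold change -0.43, edgeR adjusted p = 0.447). Anapc11, the RING subunit of the anaphase-promoting complex, came next by p, at 21.3, 24.7 and 24.8 CPM in OgaVav-Cre against 29.5, 29.7 and 26.9 CPM in wildtype (edgeR adjusted p = 0.501). By role, the ratio of wildtype replicate 1 to the mean of the other two was 1.24 for the 15 genes of the anaphase-promoting complex and 1.97 for 17 further kinesin and spindle genes.

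The 42 genes of DNA replication and S phase summed to 3634, 3871 and 3631 CPM in OgaVav-Cre against 4224, 2463 and 2854 CPM in wildtype, again with the OgaVav-Cre libraries in between. Their median log2 fold change was 0.22, with 38 of 42 above 0, 2 higher at an unadjusted p below 0.05 and none past the cutoffs. Without wildtype replicate 1 the median was 0.51 and 40 of 42 were above 0. At an unadjusted p below 0.05, 30 of 42 were then higher, against 7.4% of all loci. This count is not a separate test, as wildtype replicate 1 was the highest of the 6 libraries for 28 of the 42. The 2 that reached that level with all libraries were Rpa2 and Tyms. Rpa2, of the protein that covers single-stranded DNA, was at 64.3, 63.0 and 56.0 CPM in OgaVav-Cre against 55.6, 34.1 and 37.8 CPM in wildtype (edgeR adjusted p = 0.439). Tyms, the thymidylate synthase, was at 52.3, 54.1 and 55.4 CPM in OgaVav-Cre against 51.4, 27.4 and 33.7 CPM in wildtype (edgeR adjusted p = 0.465). For each of them the OgaVav-Cre libraries were above all 3 wildtype ones, which none of the 48 members showed.

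The 18 genes of G1 and quiescence summed to 1766, 1720 and 2094 CPM in OgaVav-Cre against 1946, 1550 and 1772 CPM in wildtype, a ratio of wildtype replicate 1 to the mean of the other two of 1.17, against 2.24 for the mitosis genes. Ccnd1, the cyclin D1 of the G1 phase, was at 59.2, 71.5 and 76.8 CPM in OgaVav-Cre against 50.8, 23.0 and 40.2 CPM in wildtype, with no overlap (log2 fold change 0.86, edgeR adjusted p = 0.412). Cdk6, its partner kinase, was at 112, 168 and 135 CPM in OgaVav-Cre against 248, 183 and 181 CPM in wildtype, lower in every OgaVav-Cre library (log2 fold change -0.56, edgeR adjusted p = 0.426). Of this list 16 genes were tested, 2 (Ccnd1 and Ccnd2) were higher and 1 (Cdk6) lower at an unadjusted p below 0.05, and none passed the cutoffs. Without wildtype replicate 1 the median log2 fold change of the list went from 0.060 to 0.23, with 10 genes above 0 and 6 below. At an unadjusted p below 0.05, 2 genes were then higher, Ccnd1 and Cdkn2c, and none was lower, against 7.4% and 7.13% of all loci.

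**Figure D5:**
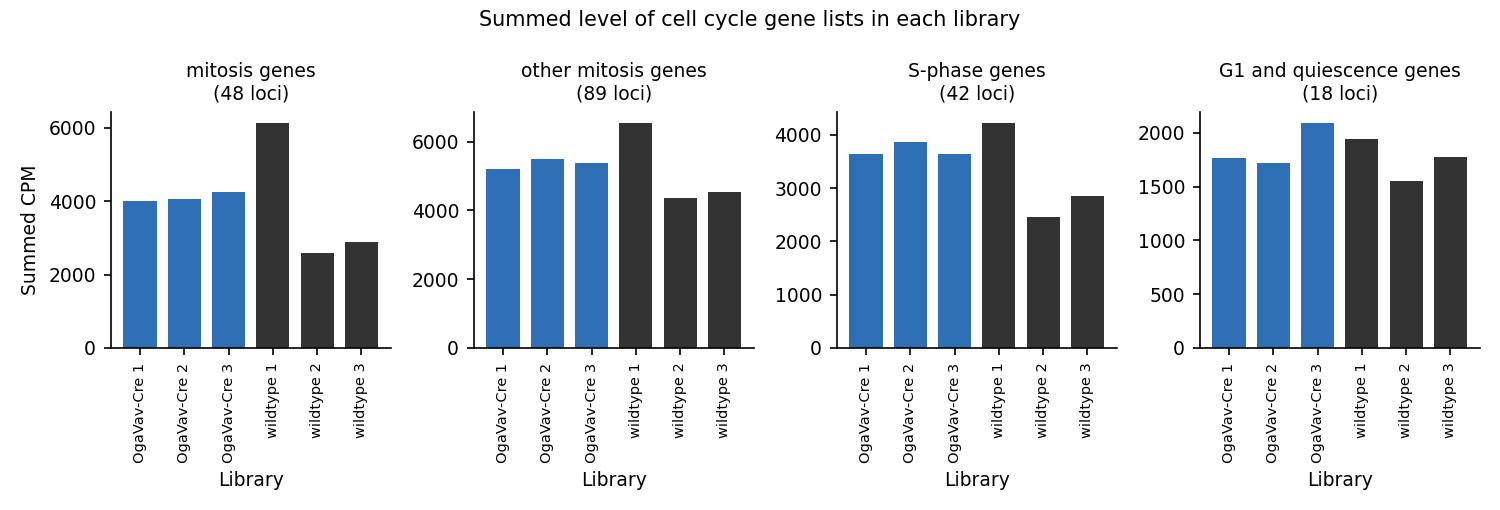
Summed CPM of the 48 mitosis genes, 89 other mitosis genes, 42 S-phase genes and 18 G1 and quiescence genes in each library (bars, blue for OgaVav-Cre and dark for wildtype). In the first 3 panels wildtype replicate 1 is the highest bar and wildtype replicates 2 and 3 the lowest; in the G1 panel OgaVav-Cre replicate 3 is the highest.

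Markers of other cells that the gate could hold varied between the same libraries. The 4 genes of granulocyte precursors, Mpo, Elane, Prtn3 and Ctsg, were all highest in wildtype replicate 1, and their sum was 683, 470 and 602 CPM in OgaVav-Cre against 968, 517 and 508 CPM in wildtype. The 6 genes of B cell precursors summed to 277, 181 and 800 CPM in OgaVav-Cre against 837, 215 and 655 CPM in wildtype. Of these 6 genes, 3 were highest in wildtype replicate 1 and 3 in OgaVav-Cre replicate 3. The 6 erythroid genes summed to 737, 250 and 2297 CPM in OgaVav-Cre against 565, 419 and 707 CPM in wildtype, and 7 of the 8 plasma cell genes, the number found, to 11129, 5402 and 1527 CPM and 2665, 7618 and 1630 CPM. The 7 genes of lineage-positive cells summed to 151, 114 and 435 CPM in OgaVav-Cre against 243, 131 and 327 CPM in wildtype. The 5 LSK markers summed to 1534, 1637 and 844 CPM in OgaVav-Cre against 1052, 1622 and 1190 CPM in wildtype. No gene of these lists was at 0 in every library, and none passed the cutoffs between genotypes, with or without wildtype replicate 1. The gene of each list nearest to a difference between genotypes, with its log2 fold change and edgeR adjusted p from all 6 libraries, was Ly6a (1.03, 0.483), Rag1 (-1.15, 0.492), Klrb1c (-1.08, 0.533), Tnfrsf17 (1.64, 0.545), Hbb-b1 (1.15, 0.579) and Mpo (-0.27, 0.740). The next by p, where given, were Kit (-0.26, 0.761), Igll1 (-0.56, 0.783), Xbp1 (0.68, 0.631) and Ctsg (-0.22, 0.815). The part of these cells in the levels of the mitosis genes was not tested.

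The ratio of wildtype replicate 1 to the mean of the other two wildtype libraries was also set beside the promoter motifs shown above. It had a median of 2.37 for the 29 members with TTTGAA (1.62 to 3.18), 2.12 for the 11 without it (1.36 to 3.06) and 2.14 for the 8 without a window. The ranges overlapped over most of their length, and Ccnb1, whose window holds no TTTGAA, was among the highest of the members at 3.06.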

How the data were processed

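LSK cells were sorted from bone marrow, poly(A) RNA was made into libraries with the NEBNext Ultra kit, and single-end reads were aligned by the authors to mm9 and summarized per locus with Genomatix; CASAVA 1.8.2 is named in the submitters' processing notes. The aligner, the annotation and the use of strand are not given in the sources used here. Read counts per locus were deposited by the authors without normalization, together with RPKM values, which they divided by exon length and library total. Counts were compared with the quasi-likelihood test of edgeR 4.0.16 (R 4.3.3) after filterByExpr and TMM scaling, over 22032 loci, with Benjamini-Hochberg adjustment; log2 CPM used a prior count of 2. The common biological coefficient of variation was 0.3075. The study named DESeq2 for its own test; DESeq2 1.42.0 and limma 3.58.1 served here as alternatives, the latter also on RPKM with pseudocounts of 0.1 and 1. The code was tested on simulated counts. Groups came from the labels, with 3 libraries each and no sequencing batch named.

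The members and lists were chosen with earlier results of these data known. Values in every library are given for the 10 members with the smallest p and the 5 with the highest and 3 with the lowest mean RPKM. They are also given for the 5 with the largest SD within a genotype and for textbook genes, which did not cover every role. Cdc25b was added after its values were seen. Of each other list the 2 genes with the smallest p are given, except for an item that is not reported here. All 48 loci overlap a gene of the same name and strand in GENCODE vM1 (mm9), and the spans of 22 are overlapped by another locus of the table. Nusap1 is listed at 3 loci. Cdc25b is overlapped over 334 bases by Spef1 and Cenpb/Spef1 on the other strand, the latter with 13544 reads against 6510 for Cdc25b. Beside the overlaps named with their gene, Foxm1, Kif18a, Cdc20, Cdc25c, Incenp and Ncapd2 are overlapped by 4933413G19Rik and AK141366 (same strand as Foxm1 and Kif18a), Mettl15, Elovl1 and Gm3550 (other strand than Kif18a, Cdc20 and Cdc25c) and AK089355 and Scarna10 (same strand as Incenp and Ncapd2).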

Additional observations from a re-analysis of the deposited data

How the results depend on the processing

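The number of members past both cutoffs was 0 in the main test and in each of the 19 alternatives, under which the count over all loci ran from 3 to 116 (DESeq2); with edgeR, 0 members reached an unadjusted p below 0.05, and DESeq2 and limma also gave 0. Leaving out 1 library at a time, the number higher in OgaVav-Cre at an unadjusted p below 0.05 ran from 0 to 38 and the median log2 fold change from -0.082 to 0.64, where 38 and 0.64 are the values without wildtype replicate 1. With library totals alone and without that library the median was 0.53. Of the members, 33 were higher and 0 lower at an unadjusted p below 0.05, against 3.28% and 10.27% of all loci. This alternative was chosen after seeing the data. In it Cenpf was at 0.65, Ccnb1 at 0.56, Aspm at 0.51, Bub1 at 0.39, Cenpe at 0.27 and Foxm1 at 0.034. With library totals alone and all libraries, 1.77% of all loci were higher and 10.04% lower at an unadjusted p below 0.05, against 4.38% and 6.27%. The summed level was 3584 CPM in OgaVav-Cre replicate 1 with library totals alone. With totals that left out immunoglobulin loci it was 4306, 4374 and 4576 CPM in OgaVav-Cre replicates 1, 2 and 3. The median log2 fold change of the members was then 0.133, as in the main test. The median SD of the members within wildtype ran from 0.131 to 0.855 with 1 wildtype library left out, also chosen after seeing the data, and was 0.131 without replicate 1. Wildtype replicate 1 was the highest wildtype library for 48 of 48 members under each scaling tried.

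Of the 29 members named by rule, 12 kept their sign under every alternative and none passed the adjusted p under any. The log2 fold change of Kif18a was -0.085 and that of Plk1 -0.036 with library totals alone, and Kif18a was at -0.0046 and -0.0090 on RPKM with pseudocounts of 0.1 and 1. Cenpf was at 0.0077 with DESeq2's size factors, 0.0042 with no filter and 0.0078 with DESeq2. With limma-voom Cenpf was at 0.23, Ccnb1 at 0.14, Aspm at 0.13, Bub1 at 0.085 and Cenpe at 0.032. On RPKM with a pseudocount of 0.1, filtered or not, Cenpf was at 0.15, Ccnb1 at 0.073, Aspm at 0.058 and Bub1 at 0.018, and with a pseudocount of 1 they were at 0.099, 0.057, 0.025 and 0.00072. The cause of these changes of sign was not tested. Leaving out 1 library at a time, the log2 fold change ran from -0.35 to 0.64 for Aspm, -0.083 to 0.74 for Birc5, -0.27 to 0.52 for Bub1, -0.041 to 0.83 for Ccna2, -0.35 to 0.68 for Ccnb1, -0.37 to 0.14 for Cdc25c, -0.51 to 0.12 for Cenpa, -0.44 to 0.42 for Cenpe, -0.31 to 0.78 for Cenpf, -0.47 to 0.17 for Foxm1, -0.20 to 0.38 for Kif18a, -0.040 to 1.00 for Kif2c, -0.46 to 0.36 for Mki67, -0.057 to 0.50 for Ncapd2, -0.17 to 0.73 for Plk1, -0.018 to 0.77 for Top2a and -0.13 to 0.69 for Ttk; the upper end is the value without wildtype replicate 1 in each.

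The deviations of same-numbered libraries from their genotype means correlated at -0.0814, 0.260 and 0.316. For replicates 2 and 3 the same number gave the best match, while OgaVav-Cre replicate 1 correlated best with wildtype replicate 2 (0.206). With 3 libraries per genotype these correlations cannot decide whether the replicate numbers pair the libraries. With the replicate number as a block, 0 members and 6 loci passed both cutoffs, the median log2 fold change was 0.24 with 41 of 48 above 0, and Cenpf was at 0.24, Ccnb1 at 0.15, Aspm at 0.14, Bub1 at 0.090 and Cenpe at 0.038. Counting error had a median of 0.0420 over the members on the log2 scale and was highest for Cdc25c (0.0977). The median SDs were 0.0956 in OgaVav-Cre and, in wildtype, 0.709 with and 0.131 without replicate 1. The part of depth in these comparisons was not tested.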

Other observations

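Outside the lists, loci with wildtype replicate 1 more than 2-fold above both other wildtype libraries included further genes of cell division. Kpna2, an importin, was at 127, 107 and 124 CPM in OgaVav-Cre against 181, 71.7 and 71.1 CPM in wildtype. Dlgap5, a spindle protein, was at 32.7, 36.9 and 39.3 CPM in OgaVav-Cre against 62.9, 24.96 and 27.4 CPM in wildtype. Of the lists themselves, 29 of the 48 members, 16 of the other mitosis genes, 3 of the S-phase genes, 1 G1 gene (Cdkn2c) and 1 erythroid gene (Car1, at 57.3, 14.8 and 18.2 CPM in wildtype) met this description, and none of the granulocyte, B cell precursor, plasma cell, lineage-positive or LSK lists did. Not every such locus belongs to the cell cycle: Rpl34, a ribosomal protein gene with near-identical copies in the genome, was at 124, 118 and 107 CPM in OgaVav-Cre against 126, 35.5 and 30.7 CPM in wildtype, and Siglech, a receptor of plasmacytoid dendritic cells, was at 120, 41.7 and 36.9 CPM in wildtype and 448 CPM in OgaVav-Cre replicate 3. These loci were chosen after their values were seen.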
